A study of Mus musculus with 4 samples.

Results

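The peaks described here are the wide nuclear peaks of a CLIP-seq library for YY1 in mouse embryonic stem cells, defined as peaks on chromosomes 1 to 19 that span more than 1000 bases. They numbered 982 of the 11745 peaks on those chromosomes, and of 12053 peaks in the library, so they made up 8.36% of the peaks on chromosomes 1 to 19 (exact 95% interval 7.87 to 8.88). They were chosen by width, so their widths are a description and no test was made on them. The series holds 4 libraries, 1 for each group. The library used here came from stem cells with the genotype BirA BioYY1, which express YY1 in a form that BirA, a biotin ligase from bacteria, can label. Its control has the genotype BirA, with the ligase alone. The OCT4 library came from cells that express BirA and Bio-Oct4, and it has a BirA control of its own. All cells were grown with LIF on irradiated mouse embryonic fibroblasts, so feeder cells were part of each culture. RNA was crosslinked to protein with light of 254 nm, the nuclei were purified, and streptavidin beads captured the tagged protein with its RNA. The controls and the OCT4 library were not analysed here.

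YY1 is a zinc finger transcription factor that binds DNA at promoters and enhancers and can also bind RNA. In CLIP-seq, reads gather where crosslinked RNA came from, and a peak caller commonly joins adjacent stretches with enough reads. On that reading a wide peak is a long stretch above the caller's threshold, and a gap between neighbouring peaks is a stretch below it. The caller used here is not known, so whether it joined, split or removed stretches by other rules could not be checked. The peak lists give a position and a strand for each peak but no height, read count or p-value, and the read depth is unknown. Whether a peak would also be present in the BirA control was not tested. The cell type could not be checked against marker genes, since no expression values were used.

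A gene was named only where the chromosome, position and strand of a wide peak fell within a transcript whose place in mm9 is well known, and no mm9 annotation was used. This gave 7 genes with 12 wide peaks. The other 970 are described by position. Malat1, Neat1 and Meg3 are long noncoding RNAs that stay in the nucleus. Malat1 gathers at nuclear speckles, Neat1 is the scaffold of paraspeckles, and Meg3 is expressed from the maternal copy of an imprinted region. Polr2a encodes the largest subunit of RNA polymerase II, Eif4a1 an RNA helicase of translation initiation, and Exoc4 a subunit of the exocyst. The seventh, Rn45s, is the precursor of ribosomal RNA. Its name was added after its values were seen.

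The start regions of the genes with a wide peak are shown because YY1 is known to bind DNA near transcription starts. RefSeq promoter sequences of the GRCm38.p6 build were at hand for 5 of the 7 genes, which leaves Neat1 and Rn45s without one. Each runs from 250 bases before to 50 bases after the gene's start, 5′ to 3′ on the gene's strand, and for Meg3 the first of its entries is printed. Capitals mark the core motif of YY1, CCATNTT, searched on both strands (AANATGG on the other).
Malat1: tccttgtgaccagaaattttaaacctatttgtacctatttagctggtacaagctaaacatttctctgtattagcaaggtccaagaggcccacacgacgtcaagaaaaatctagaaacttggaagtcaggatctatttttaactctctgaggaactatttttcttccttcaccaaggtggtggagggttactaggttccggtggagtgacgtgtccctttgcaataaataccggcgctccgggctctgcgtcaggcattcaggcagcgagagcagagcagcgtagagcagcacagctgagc
Meg3: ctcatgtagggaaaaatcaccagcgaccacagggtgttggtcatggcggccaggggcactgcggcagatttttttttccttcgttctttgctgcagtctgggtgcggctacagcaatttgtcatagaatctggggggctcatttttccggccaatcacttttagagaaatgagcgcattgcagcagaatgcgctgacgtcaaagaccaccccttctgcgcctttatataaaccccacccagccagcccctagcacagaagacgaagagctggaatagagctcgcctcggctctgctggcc
Polr2a: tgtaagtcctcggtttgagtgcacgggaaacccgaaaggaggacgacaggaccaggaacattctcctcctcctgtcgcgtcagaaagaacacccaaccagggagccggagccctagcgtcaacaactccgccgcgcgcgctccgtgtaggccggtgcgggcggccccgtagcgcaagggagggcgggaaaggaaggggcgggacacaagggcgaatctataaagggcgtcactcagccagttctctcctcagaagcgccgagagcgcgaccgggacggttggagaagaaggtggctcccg
Eif4a1: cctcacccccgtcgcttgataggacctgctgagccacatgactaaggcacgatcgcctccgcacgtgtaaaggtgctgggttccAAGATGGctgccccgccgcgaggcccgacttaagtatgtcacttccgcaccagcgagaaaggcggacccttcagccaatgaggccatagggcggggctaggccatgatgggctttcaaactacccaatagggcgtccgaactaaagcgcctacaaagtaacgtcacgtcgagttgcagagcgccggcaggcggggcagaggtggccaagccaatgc
Exoc4: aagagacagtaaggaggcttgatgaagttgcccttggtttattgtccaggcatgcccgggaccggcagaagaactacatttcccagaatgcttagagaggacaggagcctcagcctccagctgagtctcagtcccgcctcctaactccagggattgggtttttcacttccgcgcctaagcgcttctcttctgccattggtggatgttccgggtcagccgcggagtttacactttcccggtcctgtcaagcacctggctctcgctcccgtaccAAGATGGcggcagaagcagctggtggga
The motif occurred once each in the windows of Eif4a1 and Exoc4, that is in 2 of the 5, and in 16.1% of all 32851 promoters of the same length. A match is a match of letters and was not compared with peak positions, since the peaks are in mm9.

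Wide peaks were few but held much of the covered sequence. They covered 1519.5 kb, which was 27.8% of the bases under peaks on chromosomes 1 to 19. Their median width was 1308 bases, with quartiles at 1126 and 1733 bases. Most lay near the threshold: 641 measured up to 1500 bases, 183 from there to 2000, 119 from there to 3000, and 39 more than 3000 bases. The 39 widest of these held 10.5% of the wide bases. Just outside the threshold, 276 peaks lay at it or less than 100 bases below it, and just inside, 210 lay no more than 100 bases above it. The widest excluded peaks, of which there were 2, measured exactly 1000 bases, and 3 members exceeded this by a single base. No break in the counts was seen at the threshold.

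**Figure D1:**
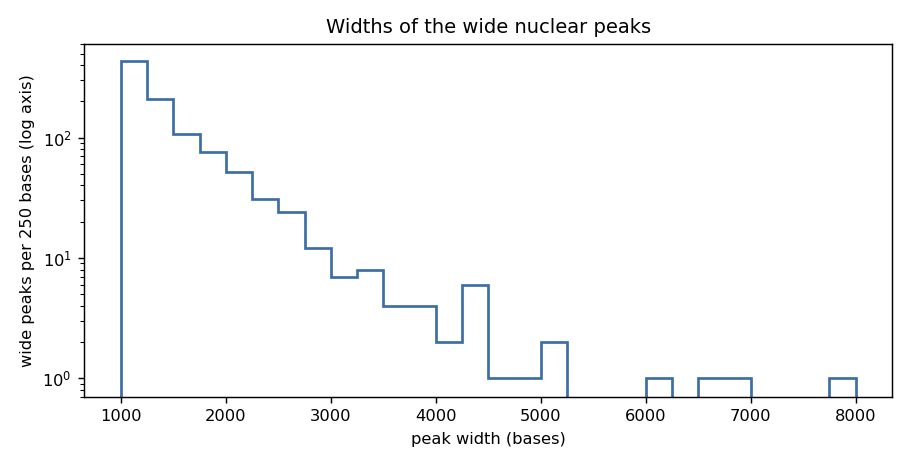
Number of wide peaks (log axis) in width steps of 250 bases (x axis), over both strands of the YY1 library. Most of the 982 peaks lie near 1000 bases, and 6 lie above 5000 bases.

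Both genome strands carried wide peaks in like number. The plus strand had 480 and the minus strand 502, a plus-strand share of 48.9% (45.7 to 52.1). Among the 10763 peaks of at most 1000 bases, called the narrower peaks from here on, the share was 51.0% (50.0 to 51.9). Plus-strand members had a median width of 1274 bases and minus-strand members one of 1347.

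Of the 4 widest peaks, 3 lay in the named noncoding RNAs Neat1, Malat1 and Meg3, and the third widest lay in no named gene. Only a few well-known genes could be named, so noncoding and protein-coding genes are not compared as classes. On the minus strand of chromosome 19, the Neat1 peak from 5837699 to 5845479 measured 7781 bases and was the widest of all. A second Neat1 peak, from 5824696 to 5827483, measured 2788 bases, and 10215 bases without a same-strand peak lay between them. Neat1 is known in a short and a long form that share their 5′ end, and the wider peak lay on the upstream side, toward that end. The Malat1 peak, from 5795782 to 5802734, measured 6953 bases and was the single peak of that gene. Meg3, on the plus strand of chromosome 12, had a peak of 6078 bases from 110782462 to 110788539 and another of 1029 bases from 110804305 to 110805333. In all 3 genes every peak was wide, and none of these 5 peaks had another peak within 10 kb on either strand. Rian, a noncoding RNA gene of the same imprinted region as Meg3, had 7 peaks and no wide one.

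In each of the protein-coding genes the wide peaks were accompanied by narrower ones. Peaks were assigned to a gene by rounded windows around its known place, so the counts and shares per gene are approximate. In Exoc4, on the plus strand of chromosome 6, 4 of 39 peaks were wide, with widths of 1121, 1070, 1437 and 2400 bases, and they held 26.5% of the gene's covered bases. In Eif4a1, on the minus strand of chromosome 11, 1 of 4 peaks was wide, from 69484280 to 69485917, with 1638 bases. It had 5 same-strand neighbours within 10 kb, 2 upstream and 3 downstream, the most of any wide peak. In Polr2a, on the same strand of the same chromosome, the wide peak ran from 69547501 to 69549894 and held 78.8% of the gene's covered bases over 2 peaks. It had no other peak within 10 kb on either strand, and the Exoc4 peak of 1437 bases had none either.

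The wide Rn45s peak, 1 of 2 peaks of that gene, lay on the plus strand of chromosome 17 at 39979935 to 39983356 and measured 3422 bases. It had a same-strand neighbour 1790 bases downstream and also an opposite-strand peak within 10 kb downstream. Ribosomal RNA is encoded by many near-identical repeats, and how reads that fit several places were counted is not given in the sources used here, so the width of this peak is uncertain.

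The 12 widest peaks made up 4.25% of the wide bases. Among them, 6 had no same-strand peak within 10 kb, and none had an opposite-strand peak within that distance. Of all wide peaks, 44.9% had no same-strand peak within 10 kb, and 9.16% had an opposite-strand peak within that distance or overlapping. With 12 peaks, these counts do not set the widest apart from the other wide peaks. Beside Neat1, Malat1 and Meg3, those without a neighbour were a minus-strand peak on chromosome 11 from 113055364 to 113060157, a plus-strand peak on chromosome 2 from 165641882 to 165646452 and a plus-strand peak on chromosome 11 from 69749221 to 69753684. Their widths were 4794, 4571 and 4464 bases. The remaining peaks sat in runs, meaning chains of peaks of 1 strand in which no gap exceeds 10 kb. On chromosome 5, a minus-strand peak of 5159 bases from 115592973 to 115598131 stood in the middle of 5 peaks, with the nearest, of 888 and 418 bases, 7785 bases upstream and 8357 bases downstream. On chromosome 7, a minus-strand peak of 5079 bases from 26030768 to 26035846 began a run of 3. On chromosome 10, a plus-strand peak of 4353 bases from 80641102 to 80645454 lay only 114 bases downstream of one of 1598 bases. On the minus strand of chromosome 5, a peak of 4463 bases from 33868545 to 33873007 followed one of 2743 bases at a gap of 2416 bases. On chromosome 3, a peak of 4316 bases from 41366614 to 41370929 on the plus strand was the last of a run of 4. The third widest peak lay in a run of 4 wide peaks on chromosome 19.

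Wide peaks had neighbours on their own strand more often than narrower peaks did, on both sides. A same-strand peak lay within 10 kb upstream of 318 wide peaks, or 32.4% (29.5 to 35.4), against 19.9% of narrower peaks (19.1 to 20.6). Downstream, 330 wide peaks had one, or 33.6% (30.7 to 36.7), against 19.8% (19.02 to 20.5). The background over all peaks of chromosomes 1 to 19 was 20.9% on each side, equal because each upstream neighbour of a peak has that peak as its own downstream neighbour. Neighbours on both sides were found for 107 wide peaks, or 10.9% (9.02 to 13.01), against 5.67% of narrower peaks (5.24 to 6.12). No same-strand neighbour within 10 kb was found for 441, or 44.9% (41.8 to 48.1), against 66.0% (65.1 to 66.9). With 1 library there are no replicates, and neighbouring peaks can come from 1 RNA, so these intervals cover counting error over peaks only and no p-value is given.

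The excess was found on most chromosomes and lay largely in neighbours that were wide themselves. The upstream share of wide peaks was above that of narrower peaks on 18 of 19 chromosomes, all but chromosome 12, where it was 11.8% against 16.2%. The downstream share was above on 18 of 19, all but chromosome 5, where it was 19.3% against 20.03%. Where wide peaks had an upstream neighbour, the nearest was itself wide in 119 of 318 cases, or 37.4% (32.1 to 43.0), against 9.86% for narrower peaks (8.63 to 11.2). The median width of that nearest upstream neighbour was 775 bases beside wide peaks and 390.5 bases beside narrower ones. With neighbours of at most 1000 bases alone counted, the upstream share was 21.2% (18.7 to 23.9) against 18.1% for narrower peaks. The downstream share was then 22.3% (19.7 to 25.04), again against 18.1%.

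The share with a neighbour did not step up at 1000 bases alone but tended to be higher in wider classes on either side of it, up to 3000 bases upstream and 2000 bases downstream. Upstream it was 16.1% for peaks of up to 150 bases (14.5 to 17.9), 23.4% from 401 to 600 bases (21.6 to 25.2) and 25.3% from 801 to 1000 bases (21.9 to 28.9). Among wide peaks it was 29.6% over 1000 and up to 1500 bases (26.1 to 33.3), 32.8% from 1501 to 2000 bases (26.0 to 40.1), 43.7% from 2001 to 3000 bases (34.6 to 53.1) and 41.0% over 3000 bases (25.6 to 57.9). Downstream, the shares of these wide classes were 33.1% (29.4 to 36.9), 36.6% (29.6 to 44.0), 32.8% (24.4 to 42.0) and 30.8% (17.02 to 47.6), with overlapping intervals. Upstream and downstream intervals overlapped in each of the wide classes. Both shares come from the same peaks and overlap of intervals is no paired test, so whether the sides differ was not tested.

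**Figure D2:**
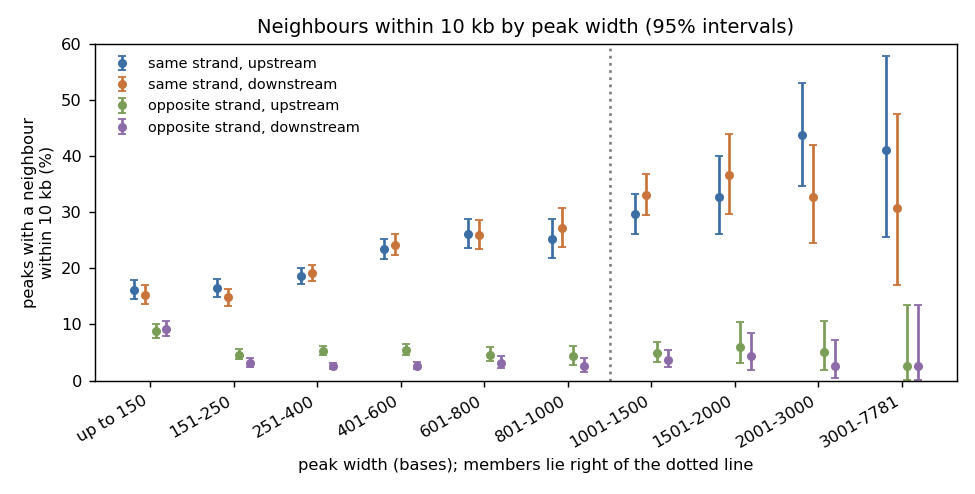
Share of peaks with another peak within 10 kb (y axis, percent, with exact 95% intervals) for peaks on chromosomes 1 to 19 in classes of width (x axis, bases), by strand and side of the neighbour. Upstream same-strand shares go from 16.1% at up to 150 bases to 43.7% at 2001 to 3000 bases and are 41.0% above that, downstream ones reach 36.6% at 1501 to 2000 bases and are 30.8% in the widest class, and opposite-strand shares are below 10% in each class.

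Coverage of the flanks gave the same order. Same-strand peaks covered 3.46% of the 10 kb upstream of wide peaks and 3.69% of the 10 kb downstream, against 1.16% and 1.14% around narrower peaks. Among the 734 wide peaks with no other wide peak in their run, a choice that by itself lowers the values, same-strand coverage was 1.32% upstream and 1.38% downstream. Among the 10260 narrower peaks with no wide peak in their run it was 0.833% and 0.802%. Coverage was highest in the first kb, at 5.22% upstream and 5.14% downstream, lowest between 3000 and 4000 bases, at 2.14% and 2.40%, and higher again beyond, reaching 4.06% between 7000 and 8000 bases upstream and 4.49% between 6000 and 7000 bases downstream. Narrower peaks had their lowest same-strand coverage in the same bin, at 0.601% upstream and 0.592% downstream.

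**Figure D3:**
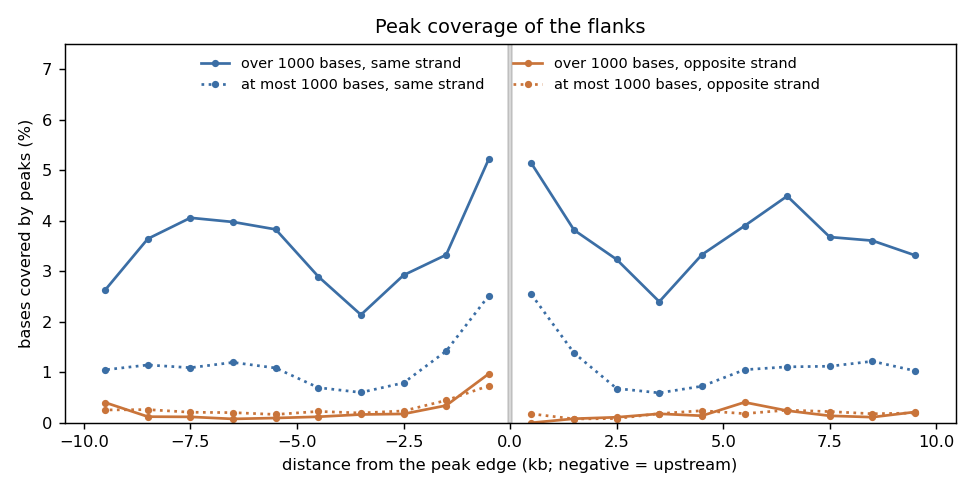
Mean share of bases covered by peaks (y axis, percent) in bins of 1000 bases on each side of wide and narrower peaks (x axis, distance from the peak edge in kb), by strand. The same-strand curves of both groups have a low point between 3000 and 4000 bases on each side, and the opposite-strand curves stay under 1%.

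Wide peaks gathered in runs with other wide peaks. Of 844 runs that held a wide peak, 441 consisted of that peak alone and 110 held 2 or more wide peaks. These 110 runs held 248 wide peaks, 25.3% of the members (22.6 to 28.1), against 4.67% of narrower peaks that had a wide peak in their run (4.28 to 5.09) and a background of 6.39% over all peaks. In 63 of the 110 runs every peak was wide. Where a run held 1 wide peak among narrower ones, the wide peak came first in 46.4% (40.6 to 52.3), last in 40.6% (34.9 to 46.5) and between others in 12.97% (9.34 to 17.4) of 293 runs. A place between others is not possible in the 210 such runs of 2 peaks, which lowers that last share. In these 210 runs the wide peak came first in 54.3% (47.3 to 61.2), an interval that held 50%. In the 51 such runs of 3 peaks it came first in 35.3% (22.4 to 49.9), second in 27.5% (15.9 to 41.7) and last in 37.3% (24.1 to 51.9). No preferred end was therefore detectable.

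Chromosome 10 had the run with the most wide peaks, at 82836121 to 82897796 on its plus strand. It held 8 peaks, 6 of them wide, with widths of 1137, 2436, 1994, 1189, 2113 and 3020 bases in the direction of the strand. Peaks covered 20.8% of its 61.7 kb. A plus-strand run of chromosome 11 (97524189 to 97546684) was denser, with 5 wide peaks among 6 and 37.9% of its 22.5 kb covered. Its wide peaks measured 1840, 1519, 1522, 1195 and 1512 bases.

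A minus-strand run of 5 peaks on chromosome 15 (98674028 to 98702596) was wide throughout, with widths of 1358, 1293, 1429, 1943 and 1400 bases, and those of 1293 and 1429 bases were 1 base apart. In a minus-strand run of chromosome 19 (4786859 to 4811539), the third widest peak of all, at 6549 bases, lay between peaks of 1302 and 1877 bases, and 45.0% of the 24.7 kb was covered. The fifth run, of the minus strand, lay on chromosome 4 (155547056 to 155571652) and had wide peaks of 1040, 2528, 1733 and 1156 bases. These 5 runs were chosen for holding 4 or more wide peaks, and no run with a wide peak had more than 8 peaks. That wide peaks outnumbered narrower ones in them therefore follows largely from the choice.

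**Figure D4:**
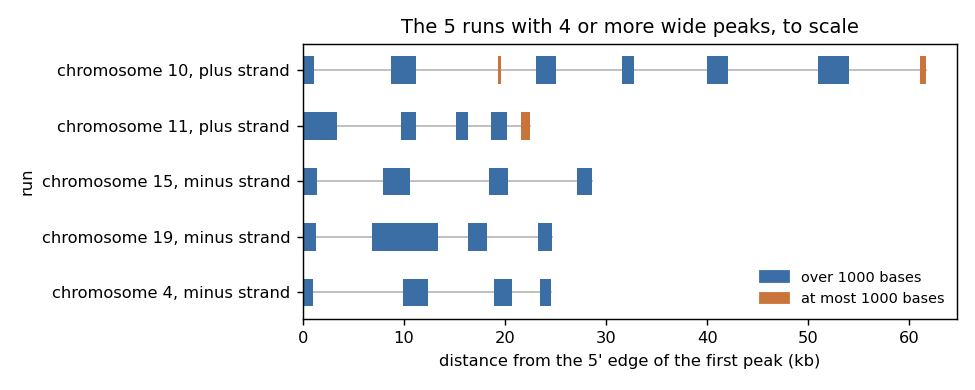
The 5 runs with 4 or more wide peaks, drawn to scale in the direction of the strand (x axis, distance in kb from the 5′ edge of the first peak). The run of chromosome 10 has 6 wide and 2 narrower peaks over 61.7 kb, and the first block of chromosome 11 is a pair of wide peaks, of 1840 and 1519 bases, with a short gap that the scale does not show.

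After Eif4a1, the wide peaks with the most same-strand neighbours had 4 each. On the minus strand of chromosome 1 there were 2 in the same run of 8 peaks, with 2189 bases from 134900356 to 134902544 and 1800 bases from 134902668 to 134904467. The others were a plus-strand peak of 2031 bases on chromosome 7 (87179251 to 87181281) and peaks of 1522 bases in the chromosome 11 run described above and of 1121 bases in Exoc4.

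The opposite strand was mostly empty around wide peaks, as it was around narrower ones. An opposite-strand peak that did not overlap lay within 10 kb upstream of 49 wide peaks, or 4.99% (3.71 to 6.54), against a background of 5.59% and 5.64% of narrower peaks (5.21 to 6.09). Downstream this held for 36, or 3.67% (2.58 to 5.04), against a background of 3.87% and 3.88% of narrower peaks (3.53 to 4.27). The intervals of wide and narrower peaks overlapped on each side, and the difference between them was not tested. Opposite-strand coverage of the first kb was 0.970% upstream of wide peaks and 0% downstream, and around narrower peaks it was 0.733% upstream and 0.176% downstream. Unlike the shares above, this coverage includes overlapping opposite-strand peaks where they reach beyond the edge of the peak.

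Overlap with an opposite-strand peak was rare. It was found for 12 wide peaks, or 1.22% (0.633 to 2.12), against a background of 0.911% and 0.883% of narrower peaks (0.715 to 1.08). By length, 0.335% of wide bases and 0.494% of narrower bases were overlapped. The longest overlap joined wide peaks of both strands on chromosome 11, a plus-strand peak of 4287 bases (102178120 to 102182406) and a minus-strand peak of 2155 bases (102177629 to 102179783), with 1664 bases in common. In 6 of the 12 the opposite-strand peak lay wholly inside the wide peak, as on chromosome 1, where 275 bases of the plus-strand peak from 88423368 to 88426061 were overlapped. The others with the longest overlaps were a plus-strand peak on chromosome 15 (81415835 to 81417292, 266 bases) and a minus-strand peak on the same chromosome (36722226 to 36723365, 257 bases). In 11 of the 12 the midpoint of the opposite-strand peak lay nearer the upstream end of the wide peak, where the chromosome 11 pair counts from both sides. This was not counted for narrower peaks, so the value has no background. Over all peaks, opposite-strand neighbours that did not overlap were also more frequent upstream (5.59%) than downstream (3.87%).

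Chromosome 11, which is rich in genes, stood out in the share of its peaks that were wide. It had 167 of the 982 wide peaks, or 17.01% (14.7 to 19.5), against 9.50% of narrower peaks (8.95 to 10.1). Of its 1189 peaks, 14.0% were wide (12.1 to 16.2), against 7.72% of the peaks on the other 18 autosomes (7.22 to 8.25). With 1.41 wide peaks per Mb between its first and last peak, it had 3.94 times the median of the others, 0.357. Peaks of any width were also denser there, at 10.01 per Mb against 3.44 to 6.36 on the others. Not all of the difference in density is therefore particular to wide peaks. With each run counted once, chromosome 11 held 16.5% of the 844 runs with a wide peak (14.0 to 19.1). Its share of runs without a wide peak was not computed, so this value has no background.

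Other chromosomes differed less. Chromosome 15 had the next highest share, 11.04% (8.38 to 14.2), and it was the other chromosome with an interval above the overall 8.36%. Intervals lay below it on 5 chromosomes, with the lowest share on chromosome 18, at 4.57% (2.58 to 7.43), and the next on chromosome 3, at 4.70% (3.06 to 6.86). The lower bound for chromosome 15 was only just above 8.36%, and its 53 wide peaks lay in 44 runs. Since wide peaks of 1 run are not independent, these intervals are too narrow. No allowance was made for comparing 19 chromosomes. Chromosomes with more peaks per Mb had a higher share of wide ones, with a Pearson correlation of 0.84 and a Spearman correlation of 0.84 over 19 chromosomes, and of 0.81 and 0.82 over 18 without chromosome 11. These are descriptions of 1 library, whose depth and peak threshold all chromosomes share.

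**Figure D5:**
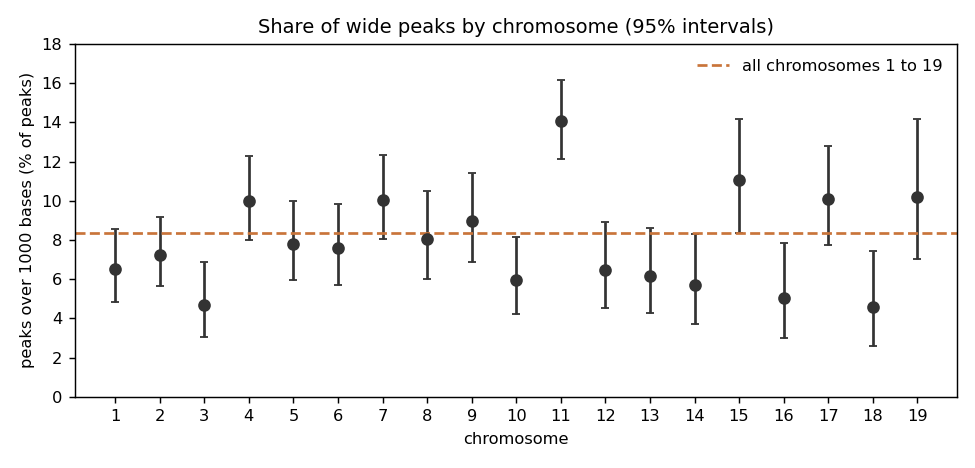
Share of peaks over 1000 bases (y axis, percent of the chromosome's peaks, with exact 95% intervals) for chromosomes 1 to 19 of the YY1 library (x axis), with the overall share as a dashed line. Chromosome 11, at 14.0%, lies above all others, and chromosome 18 has the lowest value, 4.57%.

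Strand shares of wide peaks were uneven on some chromosomes. On 6 of 19 the plus-strand share had an interval that did not hold 50%. It was low on chromosomes 6 (31.4%, 19.1 to 45.9), 15 (34.0%, 21.5 to 48.3) and 11 (40.1%, 32.6 to 48.0), and high on chromosomes 3 (72.0%, 50.6 to 87.9), 14 (72.0%, 50.6 to 87.9) and 18 (80.0%, 51.9 to 95.7). Wide peaks that share a run are not independent, so these intervals are too narrow. The strand shares of narrower peaks were not computed by chromosome, so whether the unevenness is particular to wide peaks is not known.

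A few stretches held many wide peaks. Among windows of 1 Mb that had any peak, 492 of 1794 had a wide one, and 30 had 5 or more, with 195 wide peaks together. The share of all peaks that lay in these 30 windows was not computed, and a window with more peaks has more that can be wide. The fullest was the window from 69000001 to 70000000 on chromosome 11, where 13 of 42 peaks were wide. Of these, 10 were on the minus strand, among them those of Eif4a1 and Polr2a, and the median width was 1305 bases. The window from 97000001 to 98000000 of the same chromosome had 11 among 45 peaks. On chromosome 4, the window from 137000001 to 138000000 had 11 wide among 22 peaks, all of the wide ones on the plus strand, with widths from 1004 to 3407 bases. The strands of the narrower peaks in these windows were not counted. Whether the uneven strands are particular to wide peaks is therefore not known.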

How the data were processed

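RNA crosslinked to YY1 was measured in 1 library. Its 2 peak lists, 1 for each genome strand, were deposited by the authors as BED files with 3 columns (chromosome, start, end) and no height, score or count. Per the submitters' processing notes, cutadapt, Bowtie, Bowtie2, SAMtools and the mm9 build were used. The sources used here give neither their versions nor the peak caller, its threshold or whether the control entered. Strand was taken from the name of each list.

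Starts were converted to 1-based positions, and width is end minus start. Upstream and downstream follow the strand, and distances run from edge to edge. Shares have exact Clopper-Pearson 95% intervals. The code that counts neighbours was checked against a plain recount of simulated peaks, which is no test of the results. The members and lists were chosen with earlier results of these data known. Peaks named are the 12 widest, the runs with the most wide peaks, the first 5 by opposite-strand overlap and by same-strand neighbours (with ties); the fullest windows and all runs with 4 or more wide peaks were added after their values were seen. Gene names rest on general knowledge of mm9. Of the 8 symbols looked up, 7 were in a RefSeq table of GRCm38.p6, on the same chromosome, and 6 had a promoter entry there, on the same strand. The share of peaks in genes needs an mm9 annotation and was not computed. Scripts ran under Python 3.11.15 and used scipy 1.17.1 for intervals, pandas 2.3.3 and numpy 2.4.6 for tables and matplotlib 3.10.9 for plots.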

Additional observations from a re-analysis of the deposited data

Results flagged for a closer look

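Peaks of more than 1000 bases also occurred outside chromosomes 1 to 19, in data that the comparisons above do not use. Chromosome X had 13 among 300 peaks, or 4.33% (2.33 to 7.30), with a median width of 1325 bases. The plus strand held 9 and the minus strand 4. The widest, a minus-strand peak from 90772838 to 90775722, measured 2885 bases. The mitochondrial genome had 4 among 6 peaks, of which plus-strand peaks measured 2047, 2161 and 4648 bases and a minus-strand peak 4780 bases. The plus-strand peak of 4648 bases (10912 to 15559) lay within the span of the minus-strand one (10851 to 15630). The mitochondrial genome lies outside the nucleus, and how pure the nuclei were was not tested.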

How the results depend on the processing

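Alternatives gave 60 values. In 29 cases they lay inside the interval of the main setting, within 10% of a share that has no interval or within 1.5 times a count. In 31 they did not. Wide peaks changed from below to above narrower ones in opposite-strand neighbours downstream, where the main intervals overlapped, with peaks joined across 100 bases (3.90% against 3.84%) and at 20000 bases (7.74% against 6.54%). In all 20 alternatives on same-strand neighbours, the share of wide peaks was above that of narrower ones. With the width limit at 800, 1500 or 2000 bases there were 1611, 341 or 158 wide peaks, with 38.0%, 13.8% or 8.05% of the covered bases. Above 1500 bases the plus-strand share was 45.5%, the upstream same-strand share 37.5% and the share with another wide peak in the run 21.1%. Above 2000 bases these last values were 43.0% and 17.1%, and opposite-strand peaks lay downstream of 2.53% and over 2.53%. Joining peaks across 100 bases gave same-strand shares of 28.9% upstream and 29.3% downstream. A distance of 5000 bases gave 18.7% and 18.4% for the same strand, 2.85% and 1.53% for the opposite strand and 14.2% for runs; 20000 bases gave 45.8% and 47.4%, 8.55% and 7.74%, and 35.2%. With neighbours of at most 1000 bases alone the shares were 21.2% and 22.3%. Without peaks that had another wide peak in their run, flanking coverage of members was 1.32% and 1.38% on the same strand and 0.117% downstream on the opposite one. Chosen after seeing the data, a gap of over 100 bases gave 30.3% downstream. The other values stayed within these bounds, among them those of single strands and those without chromosome 11. The cause of these changes was not tested, except that a changed limit or distance alters the counts by construction. No paired analysis was possible because values of 1 library were used. As the depth is not known, the gaps between peaks may still hold bound RNA.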

Other observations

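Gaps between successive same-strand peaks on chromosomes 1 to 19 did not thin out evenly with distance. There were 744 gaps of up to 1000 bases, 257 from there to 2000, 153 to 3000 and 116 to 4000. The number was then higher again, at 196 up to 5000, 216 up to 6000 and 223 up to 7000 bases, before it fell to 171 between 9000 and 10000. Gaps with 1 wide peak at an edge gave the same shape, with 121 in the first kb, 16 between 3000 and 4000 bases and 49 between 4000 and 5000. Gaps between narrower peaks numbered 601, 91 and 134 in these bins. Gaps between wide peaks numbered 22 in the first kb and 15 between 1000 and 2000. There were 9 each between 2000 and 3000 and between 3000 and 4000. Then came 13 between 4000 and 5000, 15 between 5000 and 6000 and 6 between 9000 and 10000. These were too few to judge whether they have a low point there. The low point was noticed in these data, and its cause was not tested.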
